A study of Homo sapiens with 30 samples.

Results

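The S5A response and the loss of RPB1 were compared as a difference of 2 changes. RPB1 is the catalytic core subunit of RNA polymerase II, and the S5A line carries a version in which serine 5 of the heptad repeated in its C-terminal domain (CTD) is replaced by alanine. The change of each gene in the S5A line, treated minus untreated, was set against its change in the degron line, where RPB1 is degraded and nothing replaces it. Of the 30 libraries of the series, 8 entered this difference, 2 in each of 4 groups. Treated S5A cells received 2 µg/mL doxycycline for 24 h, which induces the S5A RPB1, and 100 nM dTAGV-1 for 12 h, which degrades the endogenous RPB1. Untreated S5A cells had the same genotype (RPB1 degron with the S5A complement) and neither agent. Treated degron cells received 100 nM dTAGV-1 for 12 h and no doxycycline, and untreated degron cells received neither, so doxycycline and the S5A protein cannot be told apart in the difference. A further line with an induced wild-type (WT) CTD, treated like S5A, gave a second comparison. All 4 groups carry the RPB1 degron and are labelled A549, and fly S2 cells were added at 10% before RNA extraction. The labels do not say whether a line was grown from 1 clone or whether the 2 libraries of a group came from separate cultures, so p-values measure only the spread between libraries, which may be technical. That spread was estimated over all 30 libraries together, not over these 8 alone.

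RNA polymerase II transcribes the protein-coding genes of the nucleus. The heptad of its CTD reads tyrosine, serine, proline, threonine, serine, proline, serine, and phosphate on serine 5 is placed by the kinase of the general factor TFIIH as transcription starts. That mark recruits the enzymes that cap the new RNA, and phosphate on serine 2 follows during elongation. Poly(A) RNA was read here, so a level reflects both synthesis and decay, and mRNAs with short half-lives lose signal soonest when synthesis stops. Scaling sets the typical gene to no change, and fewer cells or less RNA per cell cannot be told apart in bulk RNA.

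The altered site lies in the last exon of POLR2A, the gene of RPB1. The annotated reading frame of 1980 residues holds 21 exact copies of the consensus heptad, the longest unbroken run having 15. The first 14 heptads of that run are shown because each contains the serine that the S5A protein lacks, and capitals mark its codon (exon 29 of 29, chr17:7513170-7513463, hg38, plus strand, residues 1636 to 1733). The codon was TCT in 8 of these heptads, TCA in 3 and TCC in 3. The sequence is that of the annotated endogenous transcript, and the sequence of the induced construct was not used here.
POLR2A heptads: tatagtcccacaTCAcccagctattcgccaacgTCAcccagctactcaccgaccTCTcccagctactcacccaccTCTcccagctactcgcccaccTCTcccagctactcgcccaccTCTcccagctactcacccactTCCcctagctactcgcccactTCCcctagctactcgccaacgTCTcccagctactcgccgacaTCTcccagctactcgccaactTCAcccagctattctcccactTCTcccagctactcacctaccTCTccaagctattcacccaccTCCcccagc

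The 8 libraries held 11360302 to 17542322 counts. The chi-square of counts between the 2 libraries of a group, per degree of freedom, was 1.38 in treated and 1.87 in untreated S5A cells, but 16.9 in treated and 8.06 in untreated degron cells, so the degron pairs differed among themselves by more than the S5A pairs. A spread shared by all groups may thus understate that of the degron pairs. Most markers of lung epithelium or A549 went against the label. KRT7 reached at most 0.16 CPM (counts per library size, scaled by TMM factors), AKR1B10 at most 0.0739 CPM and ALDH1A1 at most 2.08 CPM in the 8 libraries, against 1852 to 2024, 5488 to 5516 and 6811 to 7443 CPM in the 2 Mock libraries of the series. KRT8, KRT18, EPCAM and CDH1 were below Mock as well. NKX2-1 went the other way, with 5.78 to 10.6 CPM in the 8 libraries against 0 to 0.307 CPM in Mock, and NAPSA, MUC1 and SFTPB overlapped with Mock. The 11 markers summed to 88.2 to 156 CPM in the 8 libraries and to 23132 to 23318 CPM in Mock, sums that rest on a few abundant genes. The cells are therefore called by their line below. Of the other marker lists, that of HEK293 or neuronal cells summed to 125.5 to 344.6 CPM (2 of 9 under 1 CPM in all 8 libraries), against 74.8 to 79.2 CPM in Mock. In that list NEFL, NEFM, LIN28B, SOX2 and PAX2 were above Mock. INA (at most 1.83 CPM, against 52.9 to 58 CPM in Mock) and TUBB3 (at most 1.33 CPM, against 5.63 to 8.03 CPM) were below it. Immune markers summed to 1.57 to 26.3 CPM (5 of 10 under 1 CPM in all 8 libraries), endothelial markers to 1.99 to 12.3 CPM (3 of 7) and fibroblast markers to 23.4 to 75 CPM (4 of 8).

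POLR2A itself (chr17:7484366-7514616, hg38) had 1015 and 1090 CPM in treated S5A cells, against 370 and 411 CPM in untreated S5A cells. In the degron line it had 411 and 689 CPM in treated cells, against 461 and 288 CPM in untreated cells. Both treated S5A libraries lay above all 6 others, and treated and untreated degron libraries overlapped. The S5A change exceeded the degron change by 0.88 ± 0.37 on the log2 scale (standard error), which did not pass (adjusted p = 0.17; every adjusted p below comes from the quasi-likelihood test of edgeR, adjusted by Benjamini and Hochberg over all genes tested). Reads of endogenous and induced POLR2A were counted together, and the protein was not measured.

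Most calls in either line were shared with the other. Treatment changed 9928 of 19982 genes tested in the S5A line (49.7%, 5098 up and 4830 down) and 8881 in the degron line (44.4%, 4609 up and 4272 down), an adjusted p under 0.05 being a call. These balanced directions rest on the scaling: mitochondrial mRNAs gave 2121 up and 11359 down in S5A and 1942 up and 8499 down in degron, and the authors' factors gave 1765 up and 12677 down in S5A and 1395 up and 12371 down in degron. Both lines shared 3358 upward calls, 65.9% of those in S5A and 72.9% of those in degron, and 3072 downward calls, 63.6% and 71.9%. Across all tested genes, which are not independent replicates, Pearson's r of the changes was 0.785, and no library entered both changes.

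The difference itself was called for 1274 genes (6.38%), of which 640 had the higher change in S5A (3.2%) and 634 the lower (3.17%). A difference of at least 2-fold was reached by 353 of the higher and 170 of the lower genes. Of the 640 higher genes, 210 rose in S5A with no call in degron, 161 had no call in S5A and fell in degron, 121 fell in both and 77 rose in both. Of the 634 lower genes, 266 fell in S5A with no call in degron, 184 fell in both, 109 rose in degron with no call in S5A and 26 rose in both. All 4 treated minus untreated differences of S5A lay above all 4 of the degron line for 18.7% of genes and below them for 19.5%. Opposite calls were made for 71 genes up in S5A and down in degron and 49 down in S5A and up in degron. The balance of higher and lower calls depended on the scaling and the low-count filter: it was 803 and 429 with DESeq2 size factors, 196 and 190 with the factors solved from the authors' deposited tables, and 251 and 1499 with scaling by the 13 mitochondrial mRNAs. With the filter at a mean of 5 CPM it was 870 and 393. A fit of only the 8 libraries gave 884 calls, 485 higher and 399 lower. The counts under the authors' factors and under mitochondrial scaling are out of 19982 genes. They are the ones to set beside list counts under the same scaling below. Leaving out 1 library gave 599 to 837 calls for 7 of the 8 libraries, with 599 without treated S5A replicate 2, and 1232 without treated degron replicate 1. The median of all genes was -0.03 on the log2 scale, -0.13 with the authors' factors and -0.29 with mitochondrial scaling, and differences below are relative to the typical gene.

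**Figure D1:**
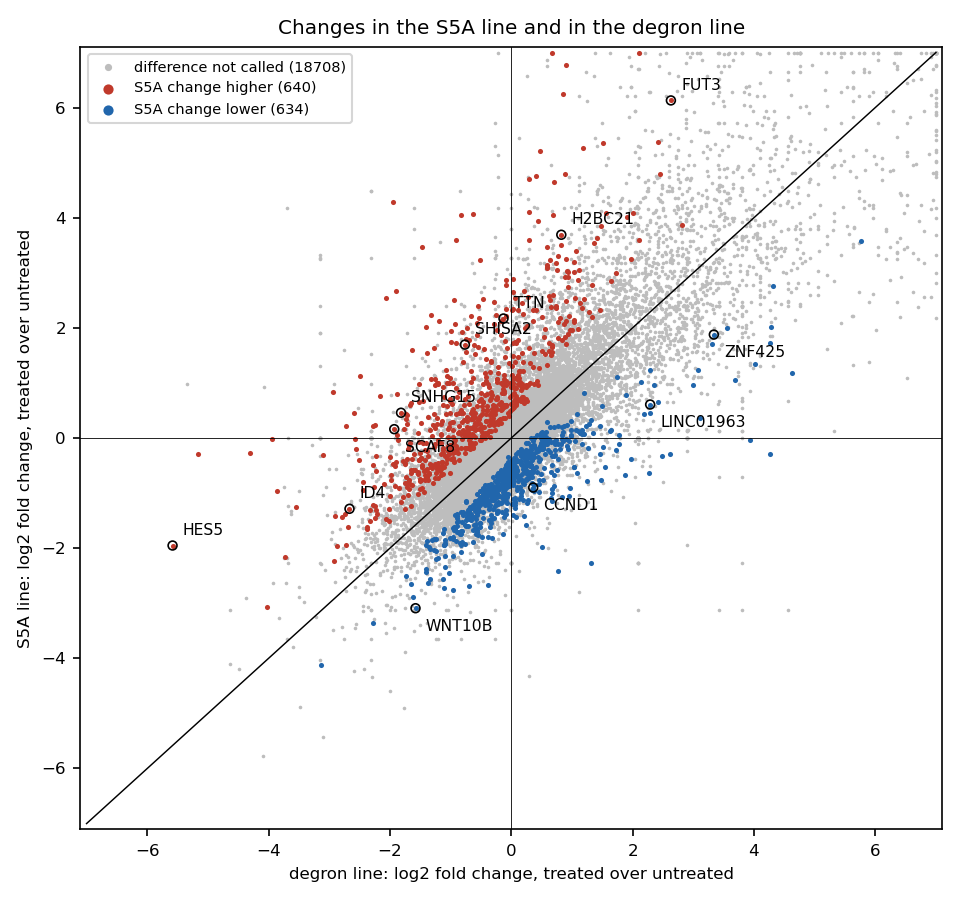
Log2 fold change of treated over untreated cells for 19982 genes, in the S5A line (vertical axis) and in the degron line (horizontal axis); values beyond 7 in either direction are drawn at the edge, the diagonal is equal change, and circles mark named genes. Most genes follow the diagonal (r = 0.785), with 640 genes called above it and 634 below it.

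Of the targets of BMP and Notch signalling, most fell in both lines, and 10 of 23 had the higher change in S5A. BMP signals through SMAD proteins to induce the ID genes, which encode inhibitors of basic helix-loop-helix factors, and Notch induces the HES and HEY repressors. Of 23 tested members 16 fell in S5A and 18 in degron (24.2% and 21.4% of all genes), with medians of -0.94 in S5A and -1.61 in degron on the log2 scale. In the difference 10 were higher and 0 lower (3.2% of all genes were higher), with a median of 0.71, against 0.45 under mitochondrial scaling and 0.62 under the authors' factors, where 4 were higher under either. The lines differed in this list before treatment, with 8 of 23 lower and 3 higher in untreated S5A than in untreated degron cells (6.98% and 5.77% of all genes) and a median of -0.44. Summed over the list, levels overlapped between treated S5A (986 to 1025 CPM) and treated degron cells (984 to 1189 CPM), against 1846 to 1847 CPM in untreated S5A and 2247 to 2511 CPM in untreated degron cells.

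HES5, a Notch-induced repressor (chr1:2528745-2530245), had 1.59 and 2.89 CPM in treated S5A cells, against 8.13 and 9.55 CPM in untreated S5A cells. In the degron line it had 0.306 and 0.578 CPM in treated cells, against 24.6 and 18.9 CPM in untreated cells. Every treated library lay below the untreated ones of its line, and untreated degron cells had the highest level. The log2 difference was 3.63 ± 0.56 (adjusted p = 0.00056), and HES5 was also lower in untreated S5A than in untreated degron cells (-1.30, adjusted p = 0.0016).

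ID4 (chr6:19837386-19840684) had 26.3 and 26.7 CPM in treated S5A cells, against 66.4 and 62.6 CPM in untreated S5A cells. It had 15.7 and 16.3 CPM in treated degron cells, against 110 and 93.3 CPM in untreated degron cells. The groups did not overlap, and the fall was smaller in S5A, with a difference of 1.38 ± 0.15 (adjusted p = 1.1e-05). ID2 (chr2:8678845-8684453) had 69.7 and 66.2 CPM in treated S5A cells and 122 and 119 CPM in untreated S5A cells, against 65.7 and 64.9 CPM in treated degron cells and 278 and 281 CPM in untreated degron cells. Its difference of 1.27 ± 0.11 (adjusted p = 4.6e-07) lay in the untreated libraries: treated cells of both lines, compared directly, differed by 0.06 (adjusted p = 0.61). ID3 differed by 1.35 ± 0.24 (adjusted p = 0.0018). The other called members, ID1, HES1, NOG, SMAD6, SMAD7 and JAG1, were singled out after their values were seen and differed by 0.77 (JAG1, a Notch ligand) to 1.58 (NOG, which encodes the BMP antagonist noggin). Against the WT line, 13 of the 23 targets were lower in S5A and 1 was higher (11.7% and 6.4% of all genes). ID4 stood at -1.22 (adjusted p = 9.2e-06) and HES5 at -1.42 (adjusted p = 0.028). For these 2 genes the S5A change thus lay below that of the WT line and above that of the degron line.

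Most replication-dependent histone mRNAs rose in both lines, and 6 of 35 tested had the higher change in S5A. These genes normally end their mRNA in a stem-loop without a poly(A) tail, and what is counted here is the polyadenylated part. Of the 35 genes 33 rose in S5A (25.5% of all genes) and 24 in degron (23.1%), with medians of 2.28 and 1.59. The difference was higher for 6 (3.2% of all genes) and lower for 0, with a median of 0.81 (0.55 under mitochondrial scaling and 0.71 under the authors' factors, 4 higher in either). H2BC21 (chr1:149884459-149886652), a histone H2B gene, had 24.5 and 24.6 CPM in treated S5A cells and 2.08 and 1.67 CPM in untreated S5A cells, against 3.31 and 3.35 CPM in treated degron cells and 2.32 and 1.36 CPM in untreated degron cells. Treated S5A cells stood apart from the 6 other libraries, and the difference was 2.87 ± 0.30 (adjusted p = 1.0e-05).

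H2AC6 (chr6:26124145-26139116), a histone H2A gene, had 24.5 and 26.4 CPM in treated S5A cells and 3.47 and 3.18 CPM in untreated S5A cells, against 3.43 and 2.95 CPM in treated degron cells and 1.73 and 1.60 CPM in untreated degron cells. The pattern matched that of H2BC21, at 2.00 ± 0.26 (adjusted p = 9.6e-05). H2BC11, another H2B gene (chr6:27125897-27132750), differed by 2.62 ± 0.29 (adjusted p = 1.2e-05). The other 29 did not pass: H2BC5, for example, rose by 3.16 in S5A and by 2.90 in degron cells, a difference of 0.26 ± 0.25 that did not pass (adjusted p = 0.68; named after its values were seen). Against the WT line 10 histone genes were higher and 0 lower (6.4% and 11.7% of all genes). Histone genes are near-identical copies whose reads can be split between them, so values of single genes are uncertain.

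Upstream bases of H2BC21 and H2BC11 are printed as the members of this group with the largest differences, those of HES5 and ID4 as BMP and Notch targets, and that of HNRNPD as a gene of the lower group that holds CACGTG. Each runs from 120 bases before the RefSeq start site to the base before it (GRCh38.p14), on the strand of the gene, and capitals mark the TATA box (TATAAA), the E-box (CACGTG), the CCAAT box and the GC box (GGGCGG) on either strand. H2BC21 lies on the minus strand (chr1:149886683-149886802), as do H2BC11 (chr6:27132796-27132915), HES5 (chr1:2530264-2530383) and HNRNPD (chr4:82373992-82374111), and ID4 lies on the plus strand (chr6:19837250-19837369).
H2BC21: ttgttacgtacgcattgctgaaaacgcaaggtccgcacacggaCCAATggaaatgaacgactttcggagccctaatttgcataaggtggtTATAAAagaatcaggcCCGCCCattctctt
H2BC11: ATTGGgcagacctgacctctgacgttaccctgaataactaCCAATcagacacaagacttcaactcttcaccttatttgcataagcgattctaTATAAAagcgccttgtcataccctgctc
HES5: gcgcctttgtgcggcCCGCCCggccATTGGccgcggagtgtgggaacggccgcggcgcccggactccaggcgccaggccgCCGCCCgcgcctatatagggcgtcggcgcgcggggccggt
ID4: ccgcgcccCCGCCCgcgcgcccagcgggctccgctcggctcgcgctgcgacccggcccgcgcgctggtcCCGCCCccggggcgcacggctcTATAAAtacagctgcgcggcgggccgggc
HNRNPD: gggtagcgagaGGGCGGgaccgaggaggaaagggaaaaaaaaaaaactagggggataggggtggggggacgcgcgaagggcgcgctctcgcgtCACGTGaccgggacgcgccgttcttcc

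The same motifs were counted in the RefSeq window from 250 bases before to 50 after the start site, on both strands, without regard to overlap. A window was found for 436 of the 640 higher genes, 491 of the 634 lower genes and 13203 of all 19982. TATAAA, the TATA box, was present in 9.63% of higher, 4.48% of lower and 6.35% of all windows. CACGTG, the E-box bound by MYC and related factors, was present in 6.65% of higher, 14.1% of lower and 9.64% of all windows. The TATA box was in 63.6% of the 33 histone windows, and CCAAT in 87.9%, against 36% of all. CCAAT was about as frequent in higher as in lower windows (41.1% and 43%), and GGGCGG was in 65.1% and 70.7%. These shares are descriptions of letters, and no binding was measured.

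**Figure D2:**
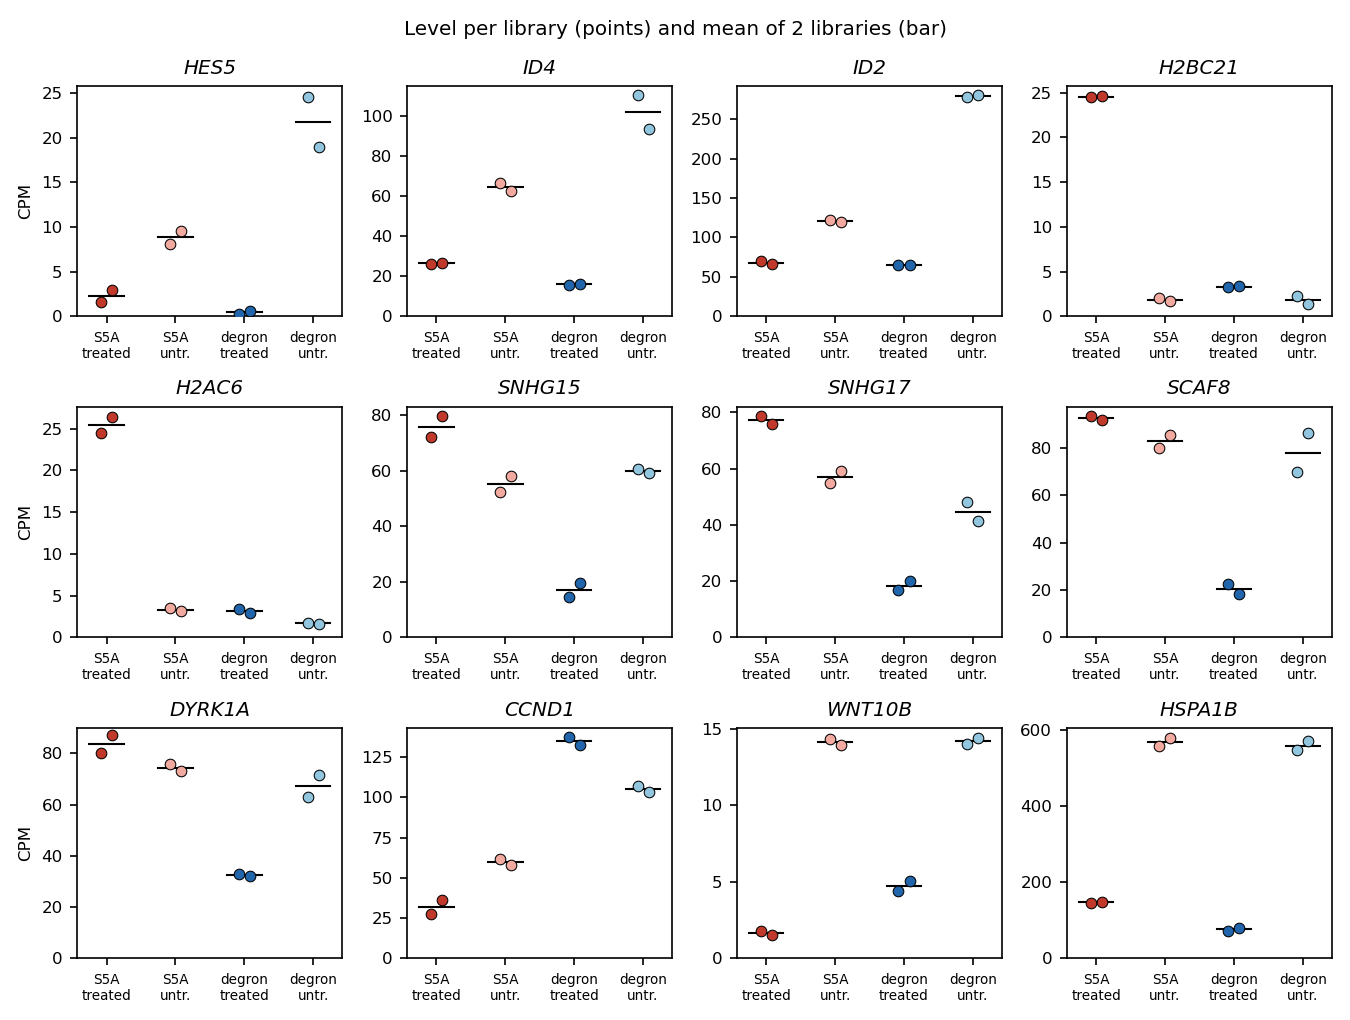
Level in CPM (vertical axes, starting at 0) of 12 genes in treated S5A, untreated S5A, treated degron and untreated degron cells; points are libraries and bars the mean of 2. H2BC21 and H2AC6 stand out in treated S5A cells, SNHG15, SNHG17, SCAF8 and DYRK1A are low in treated degron cells, and CCND1 is lower in treated than in untreated S5A cells but higher in treated than in untreated degron cells.

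Immediate early genes, whose short-lived mRNAs respond to growth signals without new protein synthesis, were split. Of 34 tested, 10 were higher and 2 lower in the difference (3.2% and 3.17% of all genes), with medians of 0.17 in S5A and -0.27 in degron cells. KLF10, a TGF-beta-inducible repressor, had 41.3 and 42.8 CPM in treated S5A cells and 20.7 and 21.6 CPM in untreated S5A cells, against 32.4 and 30.6 CPM in treated degron cells and 29.6 and 34.2 CPM in untreated degron cells. It rose in S5A alone by these calls, and the difference was 1.01 ± 0.17 (adjusted p = 0.0008). Untreated S5A libraries lay below the untreated degron libraries, so part of this difference lay in the untreated levels. The lowest estimate for KLF10 under any alternative was 0.42. CCN1, a matrix protein induced by serum, differed by 1.17 ± 0.23 (adjusted p = 0.0043), FOSL2, a subunit of the factor AP-1, by 1.11 ± 0.25 (adjusted p = 0.0089) and MAFF, a small MAF factor, by 1.38 ± 0.32 (adjusted p = 0.012), calls that 1, 3 and 6 alternatives ended. Of the 34, 2 were higher under mitochondrial scaling and 1 under the authors' factors (251 and 196 of all 19982 genes). The list median stayed positive under either (0.16 and 0.33). Of 17 ERK feedback genes 2 were higher and 0 lower (1 and 0 under either scaling), led by the phosphatase gene DUSP4 at 1.31 ± 0.24 (adjusted p = 0.0018), which rose in S5A and fell in degron cells.

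Targets of p53 and members of the BCL2 family, which govern arrest and cell death, were higher in part. Of 27 p53 targets 6 were higher and 0 lower (3.2% and 3.17% of all genes). Their medians were 0.46 in S5A and 0.14 in degron cells, and 2 were higher under either mitochondrial scaling or the authors' factors. TP53INP1 had 92.5 and 98.7 CPM in treated S5A cells and 17.3 and 16 CPM in untreated S5A cells, against 40 and 26.5 CPM in treated degron cells and 12.7 and 16.5 CPM in untreated degron cells. It rose in both lines and by more in S5A, with a difference of 1.32 ± 0.32 (adjusted p = 0.016) that missed the threshold under 4 of 19 alternatives. CDKN1A, which encodes the cell cycle inhibitor p21, differed by 0.95 ± 0.22 (adjusted p = 0.011; 0.14 under mitochondrial scaling and 0.12 under the authors' factors). Of 17 BCL2 family genes 4 were higher and 1 lower. Under mitochondrial scaling 2 were higher and 4 lower (251 and 1499 of all 19982 genes). Under the authors' factors 1 was higher and 0 lower (196 and 190 of all genes). HRK, an activator of apoptosis, had 4.70 and 4.67 CPM in treated S5A cells and 7.56 and 5.65 CPM in untreated S5A cells, against 1.65 and 1.97 CPM in treated degron cells and 7.63 and 6.09 CPM in untreated degron cells, a difference of 1.42 ± 0.29 (adjusted p = 0.0045). BCL2L1, which encodes the survival factor BCL-XL, differed by 1.20 ± 0.25 (adjusted p = 0.0048), a call lost under either scaling (0.064 in each).

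Genes of the transcription machinery moved in both directions. SCAF8 (chr6:154733325-154834244), a CTD-binding protein that prevents premature polyadenylation, had 93.6 and 91.7 CPM in treated S5A cells and 80.2 and 85.6 CPM in untreated S5A cells, against 22.6 and 18.4 CPM in treated degron cells and 69.8 and 86.4 CPM in untreated degron cells. Treated degron cells lay far below the 6 other libraries, and the difference was 2.09 ± 0.18 (adjusted p = 6.0e-07). The S5A change of SCAF8 was not called, neither alone nor against WT.

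Among 18 genes of capping and of readers of serine 5 phosphate, 3 were higher and 0 lower (3.2% and 3.17% of all genes). They were SCAF8, PCIF1, which methylates cap-adjacent adenosine (1.08 ± 0.22, adjusted p = 0.0051), and RNMT, the cap guanine methyltransferase (0.76 ± 0.15, adjusted p = 0.0045). With mitochondrial scaling or the authors' factors SCAF8 alone of these 3 passed. DYRK1A (chr21:37365573-37526358), a kinase able to phosphorylate the CTD, had 80.1 and 87.2 CPM in treated S5A cells and 75.7 and 73.3 CPM in untreated S5A cells, against 33.1 and 32.1 CPM in treated degron cells and 62.9 and 71.8 CPM in untreated degron cells. As with SCAF8, the low group was treated degron, and the difference was 1.21 ± 0.13 (adjusted p = 1.3e-05). Of 18 CTD kinases and cyclins 2 were higher and 0 lower, the other being CDK12 (0.37 ± 0.11, adjusted p = 0.043), whose call was lost under 13 of 19 alternatives. Of 15 CTD phosphatases 2 were higher and 0 lower, with CTDSP2 at 0.79 ± 0.14 (adjusted p = 0.0017), but neither call held under mitochondrial scaling (0.12 for CTDSP2) or the authors' factors (0.11).

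Some genes of other transcription complexes were lower in S5A. Of 15 Integrator subunits, which cleave RNA near promoters, 0 were higher and 2 lower (3.17% of all genes were lower). In the lines themselves 10 fell in S5A and 6 in degron cells (24.2% and 21.4% of all genes). The number lower was 4 under mitochondrial scaling and 1 under the authors' factors (1499 and 190 of all 19982 genes). INTS14 had 43.7 and 40.1 CPM in treated S5A cells and 101 and 110 CPM in untreated S5A cells, against 69.3 and 67.8 CPM in treated degron cells and 102 and 105 CPM in untreated degron cells. Both lines fell, S5A by more, with a difference of -0.74 ± 0.12 (adjusted p = 0.00054). HEXIM1, the inhibitor of the elongation kinase P-TEFb, rose by 1.11 in S5A and by 1.74 in degron cells, a difference of -0.63 ± 0.15 (adjusted p = 0.016) that was lost when treated libraries were compared directly (-0.19, adjusted p = 0.19) and under 5 other alternatives. The 12 RNA polymerase II subunits, POLR2A included, had median changes of 0.11 in S5A and 0.42 in degron cells, and 0 of 12 were called in the difference by edgeR or by DESeq2, with 4 at an unadjusted p under 0.05 in edgeR.

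RNA polymerases I and III, which make ribosomal RNA, transfer RNA and other small RNAs, had 6 of 35 genes lower and 0 higher. Of all genes 3.17% were lower and 3.2% higher. The medians of the 35 were -0.57 in S5A and -0.32 in degron cells. POLR3D, a subunit of polymerase III, had 30 and 31 CPM in treated S5A cells and 85.8 and 79.1 CPM in untreated S5A cells, against 42.9 and 46.2 CPM in treated degron cells and 69.8 and 66.7 CPM in untreated degron cells. Groups did not overlap, and the difference was -0.82 ± 0.17 (adjusted p = 0.0044). POLR1H, a small subunit of polymerase I, differed by -0.90 ± 0.18 (adjusted p = 0.0053). The number lower was 12 under mitochondrial scaling and 3 under the authors' factors (1499 and 190 of all 19982 genes).

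Among host genes of small nucleolar RNAs, whose spliced transcripts are decayed quickly, 2 changed in opposite directions. SNHG15 (chr7:44983023-44986961) had 72 and 79.7 CPM in treated S5A cells and 52.4 and 58 CPM in untreated S5A cells, against 14.4 and 19.6 CPM in treated degron cells and 60.5 and 59.4 CPM in untreated degron cells. It rose in S5A and fell in degron cells without overlap, a difference of 2.28 ± 0.19 (adjusted p = 5.2e-07). SNHG17 (chr20:38420588-38435353) had 78.8 and 75.8 CPM in treated S5A cells and 54.7 and 59 CPM in untreated S5A cells, against 16.7 and 20.1 CPM in treated degron cells and 48.1 and 41.3 CPM in untreated degron cells, a difference of 1.72 ± 0.18 (adjusted p = 1.0e-05). Most of the group did not follow: of 24 host genes 4 were higher and 0 lower (3.2% and 3.17% of all genes). These numbers were 3 and 2 under mitochondrial scaling and 2 and 0 under the authors' factors. Of the 24 genes 13 fell in S5A and 14 in degron cells (24.2% and 21.4% of all genes), and the medians were -0.53 and -0.63.

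SHISA2, of a family known from frog embryos to hold back WNT and FGF receptors (chr13:26044597-26051031), had 92 and 105 CPM in treated S5A cells and 31.3 and 29.5 CPM in untreated S5A cells, against 14.3 and 11.2 CPM in treated degron cells and 22.8 and 20.4 CPM in untreated degron cells. It rose in S5A and fell in degron cells, a difference of 2.46 ± 0.20 (adjusted p = 4.6e-07), and its change in S5A exceeded that in WT by 2.05 (adjusted p = 5.2e-07). ZNF180 (2.13 ± 0.31), ID2-AS1 (2.18 ± 0.26) and EIF4A1, a translation initiation helicase (1.75 ± 0.21), showed the same opposite calls. ID2-AS1 overlaps ID2 on the other strand, and no source says whether counting used strand. EIF4A1 overlaps a readthrough transcript. Reads of both genes are therefore uncertain. Of 446 ZNF zinc finger genes 36 were higher and 17 lower (3.2% and 3.17% of all genes), with medians of 0.08 in S5A and -0.14 in degron cells. Under mitochondrial scaling 19 were higher and 37 lower (251 and 1499 of all 19982 genes), and under the authors' factors 15 and 7 (196 and 190).

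CCND1, which encodes the G1 cyclin D1 (chr11:69641087-69654474), changed the opposite way. It had 27.7 and 36.3 CPM in treated S5A cells and 61.8 and 57.7 CPM in untreated S5A cells, against 138 and 132 CPM in treated degron cells and 107 and 103 CPM in untreated degron cells. It fell in S5A and rose in degron cells, a difference of -1.26 ± 0.14 (adjusted p = 1.7e-05), and it was lower in S5A cells before treatment as well (-0.81, adjusted p = 2.2e-05). TRIM38, an E3 ubiquitin ligase gene (-1.29 ± 0.23), the divergent transcript ZNF691-DT (-1.59 ± 0.24), LINC01547 (-1.21 ± 0.24), DNAJC30 (-1.17 ± 0.26) and TMT1B (-1.15 ± 0.23) had the same opposite calls, with adjusted p from 0.00035 to 0.009.

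Some genes of mitochondrial protein synthesis, tRNA charging and DNA replication were in the lower set, while the 79 cytosolic ribosomal protein genes had 0 calls by edgeR (2 at an unadjusted p under 0.05, 1 called by DESeq2). Of 77 nuclear genes of the mitochondrial ribosome 14 were lower and 1 higher (3.17% and 3.2% of all genes). In the lines themselves 50 fell in S5A and 26 in degron cells (24.2% and 21.4% of all genes), and the medians were -0.59 and -0.20. MRPL20 had 45.2 and 39.6 CPM in treated S5A cells and 88.4 and 90.5 CPM in untreated S5A cells, against 54.5 and 64.9 CPM in treated degron cells and 72.3 and 68.7 CPM in untreated degron cells, a difference of -0.84 ± 0.17 (adjusted p = 0.0047). The number lower was 33 under mitochondrial scaling and 5 under the authors' factors (1499 and 190 of all 19982 genes). Against the WT line 33 of the 77 were lower in S5A and 0 higher (11.7% and 6.4% of all genes).

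Of 38 DNA replication genes 7 were lower and 3 higher (14 and 2 under mitochondrial scaling, 1 and 1 under the authors' factors). Of all genes 3.17% were lower and 3.2% higher in the main fit, the shares to set beside each list of this paragraph. Mitochondrial scaling gave 1499 lower and 251 higher of all 19982 genes, and the authors' factors 190 and 196. CDC45, a helicase subunit, had 85.0 and 76.6 CPM in treated S5A cells and 148 and 150 CPM in untreated S5A cells, against 126 and 144 CPM in treated degron cells and 155 and 145 CPM in untreated degron cells. Its fall was called in S5A and not in degron cells, and the difference was -0.73 ± 0.15 (adjusted p = 0.0061; 0.071 with the authors' factors). GINS3, of the same helicase, went the other way, with 33 and 30.5 CPM in treated S5A cells and 38.9 and 34.2 CPM in untreated S5A cells, against 10.6 and 8.38 CPM in treated degron cells and 29.5 and 32.2 CPM in untreated degron cells (1.5 ± 0.18, adjusted p = 3.2e-05). Genes of one complex thus differed in opposite directions. Of 20 aminoacyl-tRNA synthetase genes, which charge transfer RNA, 3 were lower and 0 higher (8 lower under mitochondrial scaling and 1 under the authors' factors), with AARS1 at -0.77 ± 0.15 (adjusted p = 0.0041). Of 29 G2 and mitosis genes 3 were lower and 1 higher (4 and 0 under mitochondrial scaling, 0 and 0 under the authors' factors). Their median difference was -0.05. CCNB1, the mitotic cyclin B1, fell by 1.5 in S5A and by 0.88 in degron cells, a difference of -0.62 ± 0.12 (adjusted p = 0.0025, or 0.095 with the authors' factors). Of 30 SR and hnRNP splicing factors 5 were lower and 1 higher (10 and 0 under mitochondrial scaling, 0 and 0 under the authors' factors), with HNRNPD at -0.61 ± 0.11 (adjusted p = 0.0024; 0.073 with GC correction and 0.078 under the authors' factors).

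**Figure D3:**
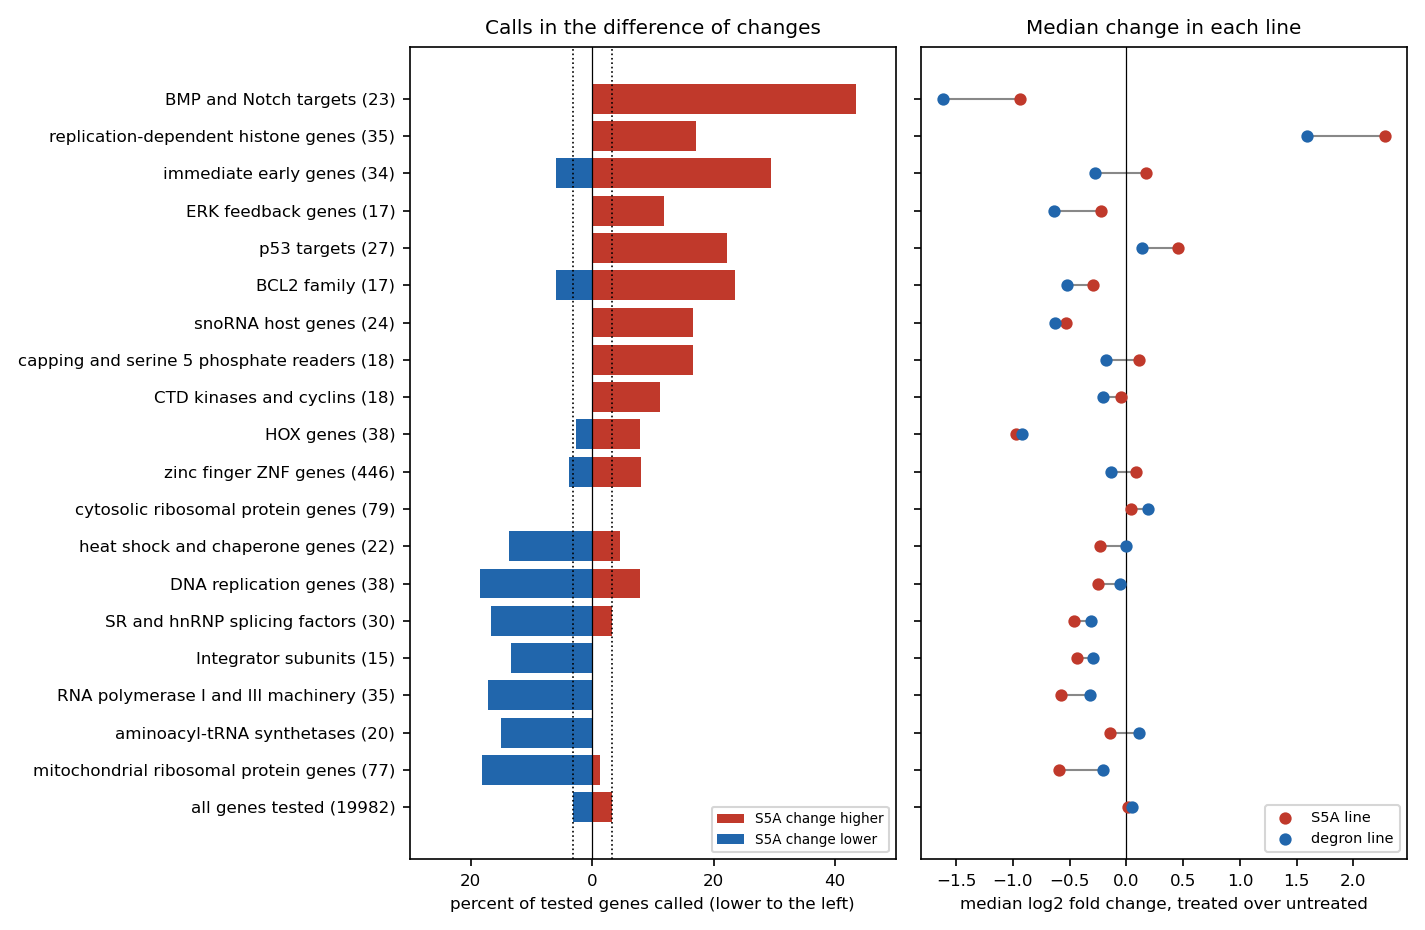
Left, percent of each gene list called higher (to the right) or lower (to the left) in the S5A minus degron difference, with dotted lines at the 3.2% and 3.17% of all genes and the number tested in parentheses; right, median log2 fold change of each list in the S5A and degron lines. BMP and Notch targets have the largest share called higher among the lists drawn, and mitochondrial ribosomal genes lie lower in S5A (-0.59) than in degron (-0.20).

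The largest single differences upward, among genes of at least 5 CPM, followed HES5 with FUT3, a fucosyltransferase gene with close paralogs (3.50 ± 0.49, adjusted p = 0.00019). FUT3 had 22.3 and 23.2 CPM in treated S5A cells and 0.378 and 0.239 CPM in untreated S5A cells, against 5.27 and 6.47 CPM in treated degron cells and 1.13 and 0.721 CPM in untreated degron cells. It rose in both lines. TTN, the giant muscle protein titin (chr2:178525989-178830802), had 96.1 and 94.4 CPM in treated S5A cells and 21.4 and 20.9 CPM in untreated S5A cells, against 15 and 12.8 CPM in treated degron cells and 12.2 and 18.3 CPM in untreated degron cells. It rose in S5A with no call in degron cells (2.30 ± 0.31, adjusted p = 0.00014). PDGFA, a growth factor, had 6.63 and 6.30 CPM in treated S5A cells and 6.05 and 4.86 CPM in untreated S5A cells, against 3.00 and 2.60 CPM in treated degron cells and 13.5 and 13.1 CPM in untreated degron cells (2.49 ± 0.32, adjusted p = 9.1e-05). Its untreated levels differed as well, being lower in S5A (-1.28, adjusted p = 0.00037). IFITM10 (2.51), MYO15A (2.35), LGALS3BP (2.30), DNAAF1 (2.21) and HPX (2.12) completed the upward set, with adjusted p from 9.6e-05 to 0.0018.

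Several of the largest differences downward were of genes that rose in both lines and by less in S5A. ZNF425, a zinc finger gene, had 27.7 and 30.1 CPM in treated S5A cells and 8.07 and 7.64 CPM in untreated S5A cells, against 45.6 and 56 CPM in treated degron cells and 4.98 and 5.05 CPM in untreated degron cells (-1.46 ± 0.25, adjusted p = 0.0012). MOBP (-2.19), TPH1 (-1.85), LINC01963 (-1.68) and PTAFR (-1.56) had the same form. MOBP and TPH1 lost the call when treated libraries were compared directly (-0.07 and -0.43). In that comparison ZNF425, LINC01963 and PTAFR differed by -0.81, -0.52 and -0.72. These genes were all higher in untreated S5A than in untreated degron cells, by 0.65 (ZNF425) to 2.11 (MOBP), with adjusted p from 3.6e-05 to 0.032. BCDIN3D, an RNA methyltransferase gene (chr12:49836039-49843129), had 9.24 and 11 CPM in treated S5A cells and 11.1 and 11.5 CPM in untreated S5A cells, against 22.9 and 23.1 CPM in treated degron cells and 7.96 and 8.09 CPM in untreated degron cells (-1.68 ± 0.18, adjusted p = 1.2e-05). OGFRP1, PSMG3-AS1 and TMEM44-AS1 likewise rose in degron cells with no call in S5A. WNT10B, a WNT ligand (chr12:48965340-48971763), had 1.76 and 1.56 CPM in treated S5A cells and 14.4 and 13.9 CPM in untreated S5A cells, against 4.41 and 5.09 CPM in treated degron cells and 14 and 14.4 CPM in untreated degron cells. Untreated levels were alike, and it fell in both lines, in S5A by more (-1.51 ± 0.35, adjusted p = 0.011; 0.069 without treated S5A replicate 2). CCDC8 followed the same pattern (-1.43 ± 0.29, adjusted p = 0.0046).

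Fewer genes were called lower among longer and among less abundant genes, while the share called higher changed little with gene span. Of protein-coding genes in the quartile of shortest gene span (up to 12868 bp), 3.36% were higher and 5.68% lower, and in the quartile of longest span (from 80945 bp) 3.63% were higher and 1.91% lower. By length of the longest transcript, 2.37% were higher and 4.36% lower in the shortest quartile, and 4.63% and 2.61% in the longest. By level in untreated WT libraries, which are not part of the difference, 3.44% were higher and 0.511% lower in the lowest quartile (up to 3.9 CPM), against 2.72% and 5.94% in the highest (from 66.2 CPM). The median difference was 0.24 in the lowest and -0.12 in the highest quartile of level, so level moved with the sign of the difference, and its part in the pattern with length was not tested. Downward calls were rare in the lowest quartile of level for the S5A change itself as well (7.85%, against 34.9% in the highest). How far low counts limit such calls was not tested.

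**Figure D4:**
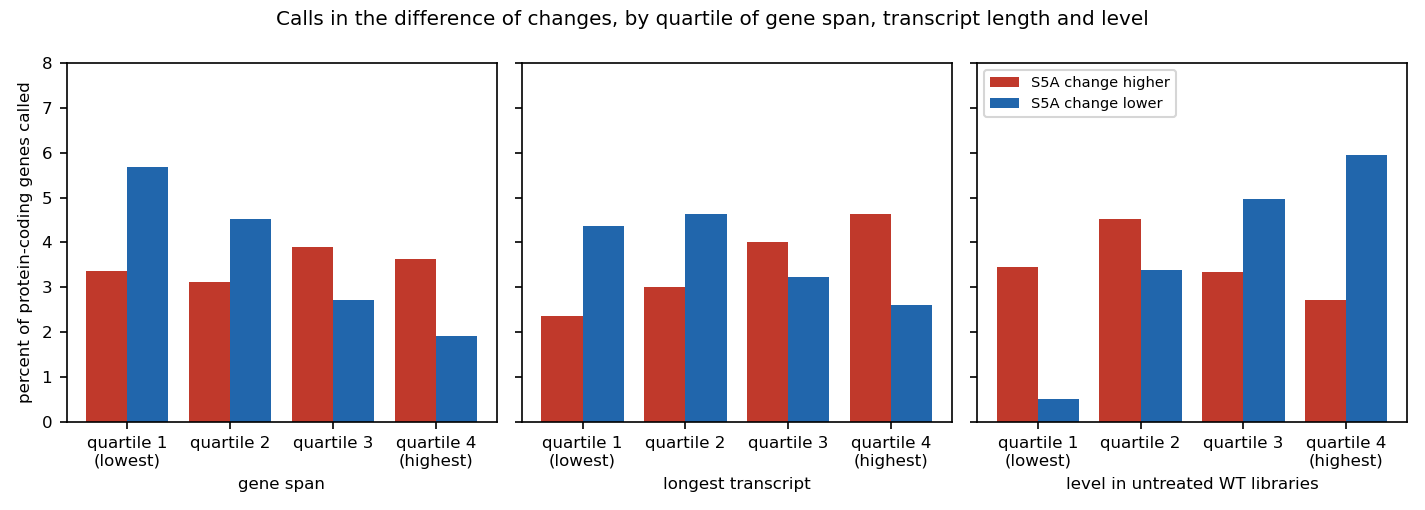
Percent of protein-coding genes called higher or lower in the S5A minus degron difference (vertical axis) by quartile of gene span, of longest transcript and of level in untreated WT libraries (3717 or 3718 genes a bar pair). The share called lower falls from 5.68% to 1.91% with gene span and rises from 0.511% to 5.94% with level.

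The S5A change was also set against that of the WT line, where doxycycline and an induced RPB1 were present in both treated groups. This difference was called for 3613 genes (18.1%, with 6.4% higher and 11.7% lower, 1279 and 2334 genes), and it shares the S5A libraries with the first. It was called for 2329 genes without untreated WT replicate 2 and for 2402 without treated S5A replicate 2. Higher and lower calls numbered 1553 and 1923 with DESeq2 size factors, 375 and 6952 under mitochondrial scaling, and 302 and 9080 under the authors' factors. Of the 640 genes higher against degron, 240 were also higher against WT and 54 lower, and of the 634 genes lower against degron, 416 were also lower against WT and 2 higher. H2BC21 (2.22, adjusted p = 6.2e-05), TTN (2.34, adjusted p = 2.4e-05) and SHISA2 were higher against both, and WNT10B (-2.86, adjusted p = 8.4e-06), CCND1 (-0.95, adjusted p = 0.00011) and INTS14 (-0.82, adjusted p = 5.6e-05) lower against both. ID4 was higher against degron and lower against WT, as was HSPA1B, a heat shock gene with a near-identical copy (0.92 against degron and -2.20 against WT).

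The lines also differed before treatment, in 2546 genes (12.7%, with 1152 or 5.77% higher and 1394 or 6.98% lower in untreated S5A). That number was 1005 without untreated degron replicate 1, 1013 without untreated S5A replicate 1 and 1305 without untreated S5A replicate 2. Under mitochondrial scaling the balance turned to 4894 higher and 474 lower. Of the 640 genes with the higher S5A change, 139 were lower and 37 higher in untreated S5A cells, and of the 634 with the lower change, 191 were higher and 19 lower. When treated S5A was compared with treated degron directly, 537 of the 640 were higher and 3 lower, and 458 of the 634 were lower and 8 higher, over a background of 14.4% of all genes higher and 15.9% lower. The untreated and the treated libraries both enter the difference itself. Part of these overlaps is therefore built in, and they are not independent support for the calls.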

How the data were processed

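Poly(A) RNA of 30 libraries in 15 groups was sequenced, and 8 libraries entered the main difference. The authors deposited whole-number counts per gene with TPM values computed from them, and their DESeq2 tables hold a base mean, which is a signal averaged over normalized counts, a log2 fold change and p-values, per the file headers. Per the submitters' processing notes, Trim Galore 0.6.2, STAR 2.7.3a, featureCounts 2.0.1 and DESeq2 1.24.0 were used with hg38 and dm6. No source names the strand setting or the annotation version. The tables held 61578 genes and 0 fly gene IDs, so the fly spike-in was not used here. Gene positions came from GENCODE 29 (56659 IDs matched), and promoters and transcript letters from the references named in the text.

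Counts of all 30 libraries were fitted together in R 4.3.3 with edgeR 4.0.16 (quasi-likelihood test, TMM scaling, low-count filter, 1 mean per group), Benjamini-Hochberg adjustment over 19982 genes, and a call at an adjusted p under 0.05. Standard errors are the log2 change divided by the root of the F statistic. CPM were computed from the counts with TMM factors. Alternatives were DESeq2 1.42.0 size factors and test, scaling by mitochondrial mRNAs, size factors solved from the authors' deposited tables, other filters, fewer libraries, GC correction, a replicate block and leaving out each library. The members and gene lists were chosen with earlier results of these data known. Named genes were up to 15 each way with the largest difference among called genes of at least 5 CPM whose 4 treated minus untreated differences did not overlap between lines, up to 6 each way with opposite calls, POLR2A, and up to 4 per list with the smallest p. Tested on simulated counts for this difference over 19982 genes, the fit called 12 of 67 genes changed 1.5-fold, 56 of 67 changed 2-fold, 63 of 66 changed 4-fold, and 5 of 19782 unchanged genes. The simulation gave all genes and groups the same spread and changed only genes of at least 5 CPM. The real degron pairs spread more than the S5A pairs, so these rates need not hold for the real counts.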

Additional observations from a re-analysis of the deposited data

Results flagged for a closer look

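The change under treatment differed between the S5A and degron lines for 1274 genes by edgeR's interaction test, which is why they are listed here. Among genes called in opposite directions in the 2 lines, 6 with the largest positive difference rose in S5A and fell in degron cells. These were SHISA2 (2.46 on the log2 scale), SNHG15 (2.28), ID2-AS1 (2.18), ZNF180 (2.13), EIF4A1 (1.75) and SNHG17 (1.72). Reads of ID2-AS1 and EIF4A1 are uncertain because of the overlapping transcripts named above. A further 6 fell in S5A and rose in degron cells, namely ZNF691-DT (-1.59), TRIM38 (-1.29), CCND1 (-1.26), LINC01547 (-1.21), DNAJC30 (-1.17) and TMT1B (-1.15). LINC01547 lost its call when treated libraries were compared directly (-0.43, adjusted p = 0.067).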

How the results depend on the processing

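Of the 1274 calls, 388 were made in each of the 8 settings that leave out 1 library, and 180 in every setting tried. The number was 386 with the authors' factors, 4673 with GC correction, 4572 with GC correction and the replicate block, and 6044 when treated libraries were compared directly. In a fit of only the 8 libraries it was 884. Leaving out 1 library gave 599 to 1232. For the S5A change the number was 6146 over genes of at least 5 CPM (7761 to 8051 without 1 library). For the degron change it was 13766 with the authors' factors and 5669 over genes of at least 5 CPM (6734 to 7607 without 1 library). The S5A minus WT difference gave 7327 with mitochondrial scaling, 9382 with the authors' factors, 6762 with GC correction, 6690 with GC correction and the block, and 2329 to 4368 without 1 library. Untreated S5A against untreated degron gave 5368 with mitochondrial scaling, 4434 in a fit of only those libraries, 5923 with GC correction, 5836 with GC correction and the block, and 1005 to 1776 without 1 library. The cause of these shifts was not tested. In the direct comparison of treated libraries HSPA8 (0.11, adjusted p = 0.19), MT-ND5 (-0.23, adjusted p = 0.036) and INA (1.78, adjusted p = 0.0029) changed sign. Replicate numbers are shared between groups, but the labels give no common batch, so the main fit did not pair libraries by number. Across 12373 genes, deviations of same-numbered libraries correlated at -0.718 between untreated and treated degron cells. For the other pairs of groups the correlation was -0.153 to 0.242. Replicates of the 2 degron groups thus differed in a shared pattern of opposite sign. These libraries make up the degron change, and the source of the pattern was not tested. With the replicate block 1155 genes were called, against 9801 for the S5A change, 8716 for the degron change, 3450 for S5A minus WT and 2439 for the untreated lines. With 2 libraries a group, changes of 1.5-fold were mostly missed on simulated counts.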

Other observations

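Of 38 HOX genes, which specify position along the body axis, 27 fell in S5A and 31 in degron cells (24.2% and 21.4% of all genes). In the difference 3 were higher and 1 lower. Of all genes 3.2% were higher and 3.17% lower in the main fit, the shares to set beside each list here. Mitochondrial scaling gave 251 higher and 1499 lower of all 19982 genes, and the authors' factors 196 and 190. HOXA5 differed by 1.01 ± 0.15 (adjusted p = 0.00046, edgeR). HOXB9 differed by -0.58 ± 0.16 (adjusted p = 0.027), a call lost under 11 of 19 alternatives (-0.10, adjusted p = 0.52 when treated libraries were compared directly). Before treatment 24 of the 38 were higher in S5A than in degron cells and 0 lower (5.77% and 6.98% of all genes). Of 22 HIF targets 2 were higher, NDRG1 (0.82 ± 0.18, adjusted p = 0.0077) and EGLN3 (0.69 ± 0.17, adjusted p = 0.019), and 2 were lower, the glycolytic genes LDHA (-0.51 ± 0.10, adjusted p = 0.0047) and HK2 (-0.63 ± 0.15, adjusted p = 0.014). Alternatives ended these calls in 2 cases for NDRG1, 9 for EGLN3, 2 for LDHA and 4 for HK2, and 8 of the 22 were lower in untreated S5A than in untreated degron cells. Of 22 heat shock and chaperone genes 1 was higher and 3 lower (1 and 8 under mitochondrial scaling, 1 and 0 under the authors' factors). HSPA8, the constitutive HSC70 chaperone, had 543 and 535 CPM in treated S5A cells and 1928 and 1943 CPM in untreated S5A cells, against 497 and 502 CPM in treated degron cells and 1206 and 1272 CPM in untreated degron cells. Its treated levels were close and its untreated levels apart. Of 37 collagen genes 2 were higher and 1 lower, with COL11A2 at 2.31 ± 0.36 (adjusted p = 0.00052).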
